A study of Homo sapiens with 4 samples.

Results

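The keratins KRT5, KRT7, KRT8, KRT18, KRT19 and KRT81, the adhesion molecules CDH1, CDH2 and EPCAM, and vimentin (VIM) were followed in BEAS-2B cells at 4 radiation doses. The 10 genes were taken by symbol from the 36601 genes of the deposited feature lists, and all 10 were present. BEAS-2B cells are epithelial cells of the human bronchus that were immortalized with a viral hybrid. The groups were an unirradiated control and cells exposed to 10 mGy, 100 mGy or 1 Gy of gamma rays from Cs-137, with processing 30 min after irradiation. Each group was 1 library of the same line, so dose and library cannot be told apart, no test between doses was possible, and all 3 doses were set against the same control library. In the droplet method, transcripts of 1 cell share a barcode, and single molecules are told apart by a unique molecular identifier (UMI) read near the 3' end.

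Keratins form intermediate filaments as obligate pairs of a type I and a type II chain. KRT8 (type II) and KRT18 (type I) are the pair of simple epithelia, KRT7 (type II) and KRT19 (type I) are further simple epithelial keratins, KRT5 (type II) marks basal cells, and KRT81 (type II) is a hair keratin. E-cadherin (CDH1) and EPCAM hold epithelial cells together, whereas vimentin filaments and N-cadherin (CDH2) are typical of mesenchymal cells. The exchange of E-cadherin for N-cadherin and the gain of vimentin are the usual marks of an epithelial-mesenchymal transition (EMT), a program driven by repressors of the SNAI, ZEB and TWIST families that bind E-box sequences in promoters of epithelial genes.

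The libraries held 11111 to 21514 barcodes and 211752280 to 285806026 UMIs. Barcodes whose UMI count stayed below the library median when multiplied by 3, called low-UMI barcodes here, were 19.6% of the control and 25.4% to 41.4% of the irradiated libraries, with 2.16% to 5.40% of the UMIs. A barcode sequence occurred in more than 1 library in 522 cases, 0.773% of all distinct barcodes. Levels are given as UMIs per 1000000 UMIs of a library (CPM), over all deposited barcodes. Intervals are exact at 95% and reflect counting error alone. Over the 8507 genes with a mean of at least 10 CPM, the median ratio to the control was 0.810, 0.766 and 1.01 in order of dose (log2 -0.30, -0.38 and 0.02), so most genes shifted at the 2 low doses. A ratio divided by this median is called relative below. The ribosomal protein share of UMIs also stood apart in the low-dose libraries, at 19.9% and 21.7% against 13.9% in the control and 14.0% at 1 Gy, so ratios were also taken with ribosomal protein and mitochondrially encoded genes left out of the total. This moved KRT7 at 10 mGy from 0.777 to 0.824 and KRT18 at 100 mGy from 1.30 to 1.41, and the call it ended is given below.

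Sequences are shown first for the gene at the top and the gene at the bottom of the level scale among the members with a promoter entry, VIM and KRT5. The entries are from RefSeq on GRCh38.p14, cover the 250 bases before the transcription start and are written 5′ to 3′ along the gene. KRT5, KRT8, VIM and CDH2 had an entry. KRT7, KRT18, KRT19, KRT81, CDH1 and EPCAM had none. Capitals mark the E-box CAGGTG, searched on both strands (CACCTG on the other), with no overlap with another motif. The KRT5 window is chr12:52520395-52520644 on the minus strand and the VIM window is chr10:17227991-17228240 on the plus strand.
KRT5: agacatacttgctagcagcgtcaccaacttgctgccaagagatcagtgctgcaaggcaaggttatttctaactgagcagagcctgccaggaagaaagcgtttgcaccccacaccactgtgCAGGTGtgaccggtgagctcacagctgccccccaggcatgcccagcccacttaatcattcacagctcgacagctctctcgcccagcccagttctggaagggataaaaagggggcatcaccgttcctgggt
VIM: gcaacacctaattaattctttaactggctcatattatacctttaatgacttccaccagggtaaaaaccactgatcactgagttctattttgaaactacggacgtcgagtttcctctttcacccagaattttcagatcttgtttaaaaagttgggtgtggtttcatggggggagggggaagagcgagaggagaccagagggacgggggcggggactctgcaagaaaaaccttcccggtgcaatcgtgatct

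KRT5 held 1 such E-box, beginning 130 bases before the start (position -130), and the windows of VIM, KRT8 and CDH2 held 0. Of 35116 RefSeq promoter windows of the same length, 17.5% held at least 1. A match describes letters and is no sign of binding.

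Vimentin was the most abundant member in all 4 libraries. VIM (ENSG00000026025, chr10:17228259-17237593, plus strand) stood at 2702 CPM in the control, 2535 at 10 mGy, 2346 at 100 mGy, then 2344 at 1 Gy. The control was highest, 10 mGy came next, and the values at 100 mGy and 1 Gy lay within counting error of each other (ratio of 1 Gy to 100 mGy 0.9995, 0.996 to 1.003). A VIM UMI was found in 97.2% to 99.7% of all barcodes. These and all other positions are those of GENCODE 29 on GRCh38, matched by gene identifier, since the count files carry no coordinates and the labels name GRCh37.

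The simple epithelial keratins were present beside it. KRT7 (ENSG00000135480, chr12:52232520-52252186, plus strand) stood at 645 CPM in the control, 501 at 10 mGy, 589 at 100 mGy, then 594 at 1 Gy. The 10 mGy library was the low one and the other irradiated libraries lay between it and the control. KRT8 (ENSG00000170421, chr12:52897187-52949954, minus strand) stood at 273, 254, 249 and 245 CPM in the same order, so that the level was lower at each higher dose by small steps. Its pairing partner KRT18 (ENSG00000111057, chr12:52948871-52952901, plus strand) stood at 236, 258, 306 and 219 CPM, highest at 100 mGy and lowest at 1 Gy. The annotated spans of KRT8 and KRT18 overlap at their ends on opposite strands, and whether counting used the strand is not given in the sources used here.

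N-cadherin was readily counted, whereas E-cadherin was close to absent. CDH2 (ENSG00000170558, chr18:27950966-28177446, minus strand) stood at 183 CPM in the control, 131 at 10 mGy, 149.6 at 100 mGy, then 195 at 1 Gy. The 2 low doses were below the control and 1 Gy was above it. CDH1 (ENSG00000039068, chr16:68737225-68835548, plus strand) had 7, 14, 5 and 8 UMIs in the 4 libraries, which is 0.0329, 0.0490, 0.0205 and 0.0378 CPM. No barcode held more than 1 CDH1 UMI, and the intervals of all 4 libraries overlap. A CDH1 UMI was seen in 0.0251% to 0.0651% of barcodes. No cell type that should lack the gene was available for a background share, so such single UMIs cannot be told apart from free RNA.

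KRT5 was just as scarce, with 6, 2, 5 and 2 UMIs (0.0282, 0.0070, 0.0205 and 0.0094 CPM) and never more than 1 UMI in a barcode. EPCAM (ENSG00000119888) had 192, 314, 287 and 196 UMIs, or 0.902, 1.10, 1.17 and 0.926 CPM, and at most 2 UMIs in a barcode. KRT19 (ENSG00000171345) had 365, 690, 478 and 369 UMIs, or 1.72, 2.41, 1.96 and 1.74 CPM. Its UMIs lay in 269, 525, 363 and 308 barcodes in order of dose, with up to 10 in a single barcode at 10 mGy. KRT81 (ENSG00000205426, chr12:52285913-52291534, minus strand) stood at 19.8, 15.1, 20.3 and 16.3 CPM and reached 31 UMIs in a single barcode of the control and of the 100 mGy library.

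**Figure D1:**
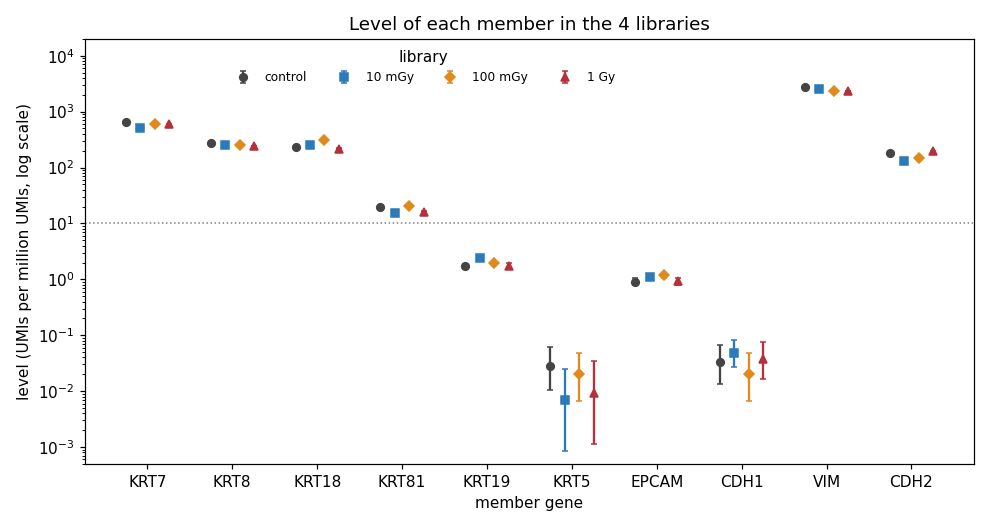
Level of each member gene (x axis) in UMIs per 1000000 UMIs on a log scale (y axis), with 1 point per library and exact 95% Poisson intervals that cover counting error only. The dotted line marks 10 CPM. VIM, KRT7, KRT8, KRT18, CDH2 and KRT81 lie above it in all 4 libraries, and KRT5 and CDH1 lie under 0.1 CPM.

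Bronchial and other cell type markers were checked by the same measure. KRT17, a basal cell keratin, stood at 76.1 CPM in the control, and ITGA6, an integrin of basal cells, at 87.5, while the other 7 of 9 basal markers stayed under 10 CPM. None of the 14 club, goblet and ciliated markers, the 8 alveolar markers or the 9 immune and endothelial markers reached 10 CPM, with summed levels of 2.71 to 3.31, 5.10 to 6.72 and 7.65 to 11.5 CPM. Among these lists BPIFA1, SCGB3A1, SFTPA1 and CD3E were at 0 in every library. Of the 10 fibroblast and smooth muscle markers COL1A1 alone passed, at 20.5 to 25.6 CPM, and the list summed to 28.7 to 36.2 CPM. Thus the libraries held simple epithelial keratins and KRT17 together with vimentin and N-cadherin, and the epithelial adhesion genes CDH1 and EPCAM were at or under 1.17 CPM.

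The hair keratin KRT81 has close relatives, and the last coding bases are shown because reads that fit several genes could be lost or shared. Over the coding sequence KRT81 was identical to KRT86 at 94.2% and to KRT83 at 93.3% of aligned positions, against 62.3% for KRT8 and KRT18. The last 90 coding bases, from GENCODE 29 transcripts, are written 5′ to 3′ with capitals where KRT86 differs from KRT81 at the same distance from the stop codon, without gaps.
KRT81: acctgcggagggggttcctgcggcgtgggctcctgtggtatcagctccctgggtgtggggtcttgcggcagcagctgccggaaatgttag
KRT86: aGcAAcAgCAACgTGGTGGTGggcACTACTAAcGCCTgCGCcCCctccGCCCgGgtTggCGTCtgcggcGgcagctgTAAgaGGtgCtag

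The stretches differ at 50 of 90 positions counted this way. The whole coding sequences differ in length (1518 bases for KRT81, 1461 for KRT86), and their alignment held 65 gaps. A count without gaps can therefore set bases side by side that do not align, and it is no measure of how distinct the ends are. KRT86 averaged 0.261 CPM and KRT83 0.0135 CPM over the 4 libraries, against 17.9 for KRT81. How the authors' counting treated reads shared by the 3 genes is not given in the sources used here, so the KRT81 level is uncertain by what it may share with them.

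Ratios to the control were compared for the 6 members with at least 10 CPM, KRT7, KRT8, KRT18, KRT81, VIM and CDH2. The other 4 members did not reach this level. A gene is called here when its ratio is past 1.2-fold. At 10 mGy, 3 of the 6 were lower, KRT7 (0.777, 0.771 to 0.782), KRT81 (0.761, 0.729 to 0.794) and CDH2 (0.715, 0.705 to 0.725), and 0 were higher. Over all 8507 genes 53% were lower and 15.4% higher at this dose, so the members' share of lower calls was close to the background. KRT8 (0.932), VIM (0.938) and KRT18 (1.09) stayed inside 1.2-fold.

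At 100 mGy KRT18 was higher (1.30, 1.28 to 1.31) and CDH2 was lower (0.819, 0.807 to 0.831), against 14% higher and 58.9% lower over all genes. Thus 1 of 6 members was lower where more than 1 in 2 genes were. KRT7 (0.914), KRT8 (0.911), VIM (0.868) and KRT81 (1.02) stayed within 1.2-fold. Without ribosomal protein and mitochondrially encoded genes in the total, CDH2 at 100 mGy was no longer past 1.2-fold, with a ratio of 0.889.

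Ratios were also taken relative to the median ratio of all genes, which raises every gene by the same factor at a given low dose. At 10 mGy KRT7 (0.959), KRT81 (0.939) and CDH2 (0.882) still lay below 1. KRT18 was past 1.2-fold higher at 10 mGy (relative ratio 1.35) and at 100 mGy (1.69), and KRT81 was so at 100 mGy (1.33). No member was past 1.2-fold lower on this scale at either dose, beside 30.7% of genes higher and 27% lower at 10 mGy and 31.8% higher and 29% lower at 100 mGy. CDH2 turned from lower to 1.07 at 100 mGy. VIM and KRT8 stood at 1.16 and 1.15 at 10 mGy and at 1.13 and 1.19 at 100 mGy.

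Differences at 1 Gy were small and mostly downward for the members. KRT81 was past 1.2-fold lower (0.821, 0.785 to 0.859) and the other 5 were not. The background was 0.846% lower and 1.28% higher, and relative to the median 1.1% lower and 0.882% higher, with KRT81 again the member called lower (0.812). Barcodes of very high UMI count were those over 2 times the median of the library's barcodes other than the low-UMI ones. Without them the ratio of KRT81 was 0.845 and the call was lost, and it was lost too with barcodes thinned to equal depth (0.835). VIM (0.868), KRT8 (0.898), KRT7 (0.922) and KRT18 (0.927) were below the control and CDH2 (1.07) above it. Thus 5 of 6 members lay below the control, where 43.8% of all genes did. Among the 8507 genes, 0.588% had a lower ratio than KRT81, 2.70% a lower one than VIM and 6.56% a lower one than KRT8.

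**Figure D2:**
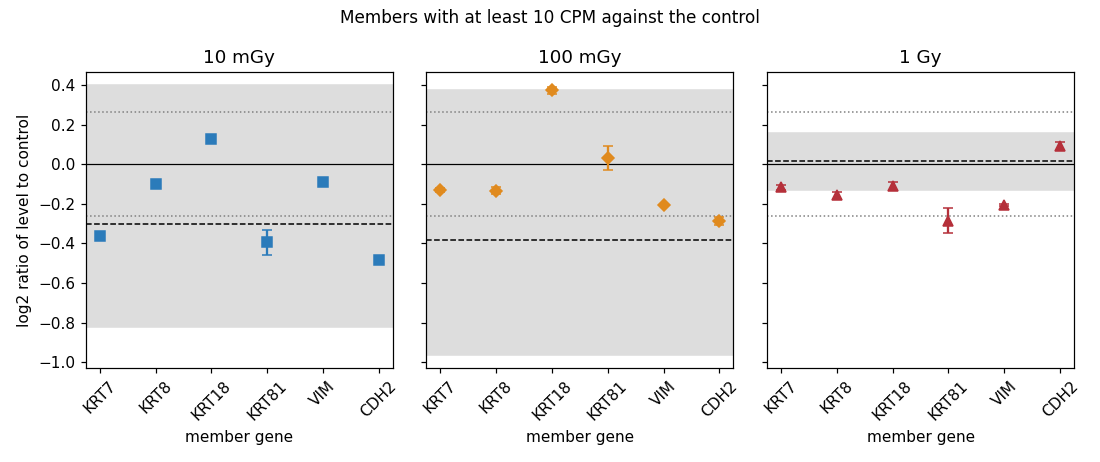
Log2 ratio of the level to the control (y axis) for the 6 members with at least 10 CPM (x axis) at each dose, with exact 95% counting intervals. Grey bands span the 10th to 90th percentile of 8507 genes, dashed lines their median and dotted lines 1.2-fold. KRT18 at 100 mGy is the highest point, and at 1 Gy KRT81, VIM and KRT8 lie below the band.

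The members below 10 CPM had wide intervals. KRT19 was at a ratio of 1.41 at 10 mGy (1.24 to 1.60), 1.14 at 100 mGy (0.993 to 1.31) and 1.02 at 1 Gy (0.877 to 1.18). For EPCAM the ratios were 1.22 (1.01 to 1.46), 1.30 (1.08 to 1.57) and 1.03 (0.836 to 1.26). For CDH1 and KRT5 every interval against the control included 1, and their difference was not detectable at this depth.

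The KRT18 to KRT8 balance differed between the libraries. For every KRT8 UMI there were 0.864 KRT18 UMIs in the control (0.854 to 0.875), 1.01 at 10 mGy (1.00 to 1.02), 1.23 at 100 mGy (1.22 to 1.24) and 0.892 at 1 Gy (0.881 to 0.904). The 4 intervals did not overlap, with the low doses above the control and 1 Gy near it. This ratio is within a library, so no scaling between libraries enters it. With 1 library per dose it shows that the partners differed unequally between libraries, and not which of them did. The intervals hold no spread between libraries. Merged over all annotated transcripts, KRT8 has the longer exonic sequence (6881 against 3218 bases), a property that moved with the ratios of all genes, as given below. Their coding sequences are closer in length (1536 against 1293 bases), and the length of the transcripts present in these cells was not measured.

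The 7 keratins with at least 10 CPM were also set out by filament type, a grouping picked after the values were known. The type I keratins KRT10 (1.32 at 10 mGy, 1.45 at 100 mGy), KRT17 (1.40, 1.29) and KRT18 (1.09, 1.30) had ratios above 1 at both low doses. The type II keratins KRT7 (0.777, 0.914), KRT8 (0.932, 0.911) and KRT80 (0.766, 0.817) had ratios below 1, and KRT81 lay below at 10 mGy (0.761) and above at 100 mGy (1.02). Of all 8507 genes, 71.9% lay below 1 at 10 mGy and 74.7% at 100 mGy. Keratins of type I at lower levels did not keep to this, since KRT34 (3.78 CPM) was at 1.16 and 0.725 and KRT33B (1.05 CPM) at 1.39 and 0.998, beside KRT19 at 1.41 and 1.14. The split around 1 also depended on the scaling. Relative to the median of all genes the type II keratins stood above 1 at 100 mGy, with KRT7 at 1.19, KRT8 at 1.19, KRT80 at 1.07 and KRT81 at 1.33, below KRT10 (1.89), KRT18 (1.69) and KRT17 (1.68). Summed, KRT10, KRT17, KRT18 and KRT19 were 509, 625, 689 and 480 CPM in order of dose, and KRT7, KRT8, KRT80 and KRT81 951, 780, 869 and 869 CPM. With unscaled UMIs per barcode KRT18 too fell under the control at 100 mGy, with a ratio of 0.829.

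Exonic length, merged over all annotated transcripts of a gene, moved with the ratios of all genes at the low doses. Its part in these ratios was not tested. At 10 mGy the median ratio went from 1.14 in the shortest quintile of genes to 0.654 in the longest, at 100 mGy from 1.11 to 0.604, and at 1 Gy it stayed between 0.997 and 1.02. KRT10, KRT19 and KRT81 belong to the shortest quintile. KRT7, KRT17, KRT18 and KRT80 are in the next quintile, with medians of 0.897 at 10 mGy and 0.857 at 100 mGy. KRT8 is longer by this measure and lies 2 quintiles further on, with medians of 0.726 and 0.678. The medians of the quintiles of KRT18 and KRT8 thus differ in the direction of the balance described above. KRT18 at 100 mGy (1.30) lay above the median of its quintile and KRT81 at 10 mGy (0.761) lay below the median of its own quintile (1.14). Among keratins of at least 10 CPM, KRT8 (0.932, 0.911), KRT10, KRT17 and KRT18 lay above their quintile medians at both low doses. KRT80 and KRT81 lay below theirs at both, and KRT7 lay below at 10 mGy (0.777) and above at 100 mGy (0.914).

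Of the other 49 keratin genes, KRT10, KRT17 and KRT80 passed 10 CPM and 18 were at 0 in every library. KRT10, a keratin of differentiating epidermis, stood at 196, 258, 283 and 194 CPM. Of these 3, 2 were higher and 1 lower at 10 mGy and again at 100 mGy, beside 15.4% and 14% of all genes higher, and 0 were past 1.2-fold at 1 Gy. Relative to the median of all genes 2 were higher and 0 lower at each low dose, against 30.7% and 31.8% of all genes higher. Linker proteins tie keratin and vimentin filaments to membrane and junctions. In this list 8 of 17 passed, of which 6 were past 1.2-fold lower at 10 mGy and 6 at 100 mGy, with 1 and 0 higher and no call at 1 Gy, beside 53% and 58.9% of all genes lower. Relative to the median of all genes 3 were lower and 1 higher at 10 mGy, and 4 lower and 1 higher at 100 mGy, against 27% and 29% of all genes lower and 30.7% and 31.8% higher on that scale. DST (dystonin) stood at 934, 340.4, 312 and 811 CPM, plectin (PLEC) at 649.5, 283, 276 and 620.1 CPM, and desmoplakin (DSP) at 187, 93.7, 86.4 and 181 CPM. All 3 are in the longest quintile of genes, and their ratios at 10 mGy (0.364, 0.436 and 0.502) were below its median of 0.654. The list median was log2 -0.41 at 10 mGy and -0.71 at 100 mGy, beside -0.30 and -0.38 over all genes.

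Other epithelial genes were mixed. Among 30 junction and surface genes 15 passed, with 9 lower and 3 higher at 10 mGy, 10 lower and 1 higher at 100 mGy and 0 past 1.2-fold at 1 Gy. These shares are close to those over all genes (53% lower and 15.4% higher, then 58.9% and 14%), and relative to the median 5 were lower and 4 higher at 10 mGy and 6 lower and 4 higher at 100 mGy, where 27% and 29% of all genes were lower and 30.7% and 31.8% higher. CD24, a surface glycoprotein, had ratios of 1.22 at 10 mGy and 0.874 at 100 mGy. The catenin CTNNA1, which links cadherins to actin, was at 0.811 and 0.773, and the tight junction scaffold TJP1 at 0.699 and 0.752. LAMB3, a laminin chain of the basement membrane, was at 0.397 and 0.354. Of 20 epithelial transcription and splicing factors, TFAP2A (0.705 and 0.660) and KLF5 (0.801 and 0.662) passed and both were lower at both low doses, though 0 were past 1.2-fold relative to the median of all genes, while CDX2, FOXA2 and GRHL2 were at 0 in every library.

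The list of EMT transcription factors held 14 genes, of which 9 passed. At 10 mGy 8 of the 9 were lower and at 100 mGy 8 were lower, with 0 higher at either dose and 0 past 1.2-fold at 1 Gy, beside the same 53% and 58.9% lower over all genes. Relative to the median of all genes 6 were lower and 1 higher at each low dose, against 27% and 29% of all genes lower and 30.7% and 31.8% higher. ZEB2, a repressor of epithelial genes, stood at 61.0 CPM in the control, 39.7 at 10 mGy, 35.3 at 100 mGy, then 63.1 at 1 Gy. Its ratios at the low doses (0.651, 0.579) were close to the medians of its length quintile, the longest (0.654, 0.604). ZEB1 (0.618, 0.524) and SNAI2 (0.532, 0.322) lay below the medians of theirs, which were 0.726 and 0.678 for ZEB1 and 0.897 and 0.857 for SNAI2. TCF3 was at 0.616 and 0.600 of the control at the low doses, SOX9 at 0.514 and 0.438, and FOXC2 at 0.491 and 0.574. Of 31 mesenchymal effector genes 25 passed, with 15 lower and 2 higher at 10 mGy, 17 lower and 3 higher at 100 mGy, and 0 lower and 1 higher at 1 Gy. The shares lower were near the 53% and 58.9% over all genes, and relative to the median 7 were lower and 7 higher at 10 mGy and 11 lower and 6 higher at 100 mGy, beside 27% and 29% lower and 30.7% and 31.8% higher over all genes. LGALS1 (galectin) stood at 2094, 4001, 4459 and 2052 CPM, past 1.2-fold higher at both low doses. The protease gene MMP14 was at 0.345 and 0.234, so that the list held genes on both sides of the control, and TPM1, a tropomyosin, stayed between 0.906 and 1.04. Among 13 further intermediate filament and lamin genes 4 passed and 3 were lower at each low dose, beside 53% and 58.9% of all genes. Relative to the median 3 were lower at 10 mGy and 2 at 100 mGy, against 27% and 29%. LMNA was at 0.934 and 0.869, whereas LMNB2 (0.590, 0.585) and LMNB1 (0.593, 0.662) were past 1.2-fold lower.

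Covariation between cells was measured inside each library. Low-UMI barcodes were left out and every other barcode was thinned to 5000 UMIs, which left 8937, 12561, 14271 and 11530 barcodes in order of dose, after leaving out 0, 42, 206 and 36 shallower ones. Correlations below are Pearson's r of thinned UMIs across barcodes, which share their library and its free RNA, and are descriptions. As a scale, r of KRT8 with 1778 genes of at least 100 CPM lay between -0.037 and 0.038 for the middle 90% of genes in the control.

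Co-detection was nearly complete. A UMI of KRT7, KRT8 or KRT18 was found in 98.1% to 98.8% of thinned barcodes and a VIM UMI in 99.99% to 100%. In the control 8827 of 8937 barcodes held both, 110 held VIM and none of the 3 keratins, and 0 lacked VIM, which allows a share of up to 0.0336%. The part of free RNA in these shares was not tested. At this depth the median barcode held 13, 12, 11 and 11 VIM UMIs in order of dose and 5 UMIs of the 6 keratins at every dose. The standard deviation of the keratin sum was 60.0% to 60.6% of its mean, and that of VIM 35.6% to 39.0%. CDH2 was found together with VIM and a keratin in 59.1%, 47.3%, 51.5% and 60.5% of barcodes in order of dose, following its level.

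Keratins went together across cells. For KRT7 and KRT8 r was 0.191, 0.146, 0.158 and 0.177 in order of dose. For KRT7 and KRT18 it was 0.130, 0.142, 0.178 and 0.149, and for the partners KRT8 and KRT18 it was 0.109, 0.118, 0.122 and 0.101. All 12 values lay above the range of the middle 90% of genes. The keratin sum also went against mitochondrially encoded UMIs, with r of -0.167, -0.107, -0.136 and -0.165. With what depth, mitochondrial, ribosomal and cell cycle shares carry removed, r of KRT7 and KRT8 was 0.171, 0.138, 0.144 and 0.157. That of KRT8 and KRT18 was then 0.101, 0.115, 0.114 and 0.090. With the variance of counting subtracted, r of KRT8 and KRT18 was 0.660, 0.809, 0.712 and 0.751. KRT19 showed no such relation at its low level, with r between -0.009 and 0.014 against KRT7, KRT8 and KRT18.

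Against vimentin, KRT8 and KRT18 had negative values in every library at 5000 UMIs. For KRT8 r was -0.076, -0.042, -0.063 and -0.032 in order of dose, and for KRT18 -0.058, -0.041, -0.060 and -0.037. With all barcodes of at least 1500 UMIs, thinned to 1500, KRT18 at 1 Gy turned to 0.0065. For KRT7 the sign differed between libraries, with -0.049 in the control, 0.018 at 10 mGy, 0.007 at 100 mGy, then -0.029 at 1 Gy. The summed epithelial members against the summed mesenchymal members gave -0.073, -0.011, -0.033 and -0.035, and Spearman's rho was -0.073, -0.011, -0.036 and -0.038. The mesenchymal sum was mostly VIM, with 13.4 VIM and 0.929 CDH2 UMIs per thinned barcode in the control. Keratins made up 1174.9 of the 1175.8 CPM of epithelial members there. Against each gene of at least 100 CPM the epithelial sum had 5th percentiles of -0.058, -0.050, -0.057 and -0.053. The value for the mesenchymal sum thus lay below the middle 90% of genes in the control and inside it at the 3 doses. With all barcodes of at least 1500 UMIs, thinned to 1500, the median of the 4 libraries was -0.0095 and the sign was not the same in every library. After removal of what depth, mitochondrial, ribosomal and cell cycle shares carry, the sums gave -0.076, -0.019, -0.046 and -0.044. VIM and CDH2, both mesenchymal, showed little relation, with 0.010, -0.004, 0.019 and -0.003. CDH2 had small positive values with KRT7 instead (0.037, 0.053, 0.027 and 0.044), inside the middle 90% of genes for KRT7 and above it for CDH2. With the epithelial sum CDH2 gave 0.036, 0.037, 0.027 and 0.038, inside the middle 90% of genes for that sum.

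**Figure D3:**
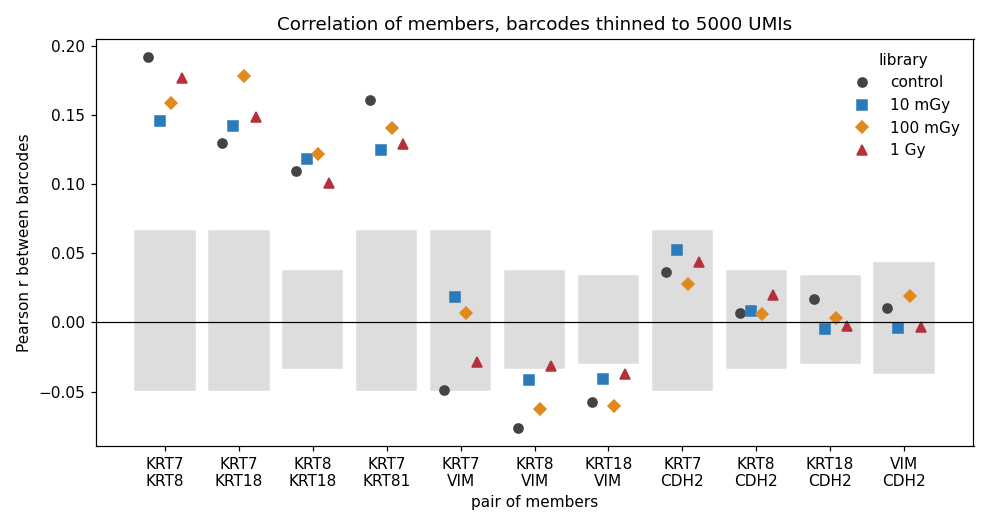
Pearson r between barcodes (y axis) for pairs of members (x axis), 1 point per library, with barcodes thinned to 5000 UMIs. Grey boxes span the 5th to 95th percentile of r of the first named gene with 1778 genes, as the median of the 4 libraries. The keratin pairs lie above the boxes, and KRT18 with VIM lies below its box in every library.

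These relations were small in UMIs. Barcodes were ranked by the sum of the 6 keratins, mostly KRT7, KRT8 and KRT18. The lowest decile averaged 13.9 VIM UMIs in the control and the highest decile 12.6, while the keratin sum went from 1.31 to 13.5. The same deciles gave 12.4 and 12.2 VIM UMIs at 10 mGy, 11.6 and 11.1 at 100 mGy, and 11.6 and 11.1 at 1 Gy. CDH2 went from 0.858 to 0.974 in the control, 0.643 to 0.754 at 10 mGy, 0.738 to 0.816 at 100 mGy and 0.938 to 1.06 at 1 Gy. These are the end deciles only, and at 10 mGy the mean of VIM went up and down over the deciles between, from 12.1 to 12.6. The median total of UMIs before thinning was 22214 in the lowest and 20559 in the highest decile of the control, and the part of depth was removed only in the residuals above.

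**Figure D4:**
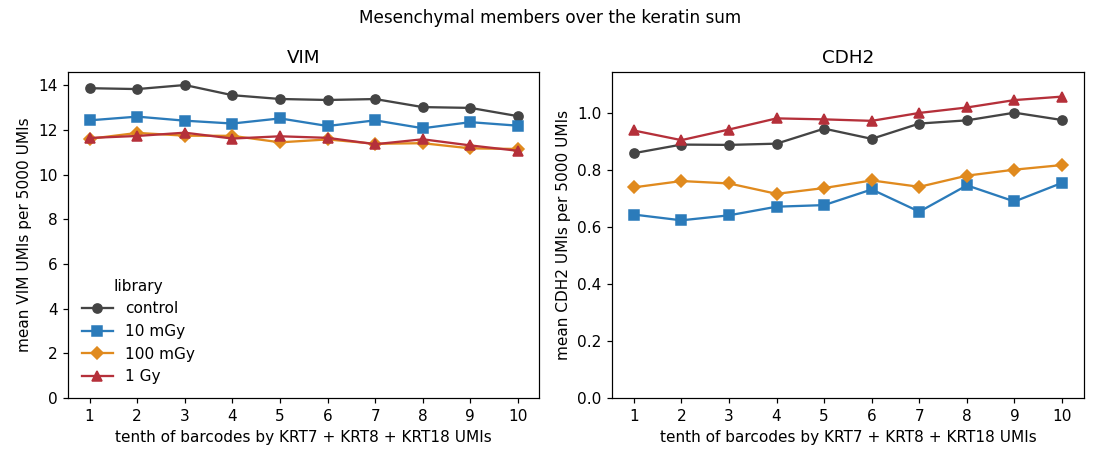
Mean VIM (left) and CDH2 (right) UMIs per 5000 UMIs (y axis) over deciles of barcodes (x axis), 1 line per library. Barcodes are ranked by the sum of the 6 keratins, of which the axis label names only KRT7, KRT8 and KRT18. The VIM lines are nearly flat, from 13.9 to 12.6 in the control, and the CDH2 lines end higher than they begin.

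The genes most like each member were found by the mean r over the 4 libraries among genes of at least 100 CPM. For KRT8 they were KRT7 (0.168), KRT18 (0.112) and GAPDH (0.092), and for KRT18 they were KRT7 (0.149), KRT8 (0.112) and GAPDH (0.107). VIM ranked 1758 of 1778 for KRT8 and 1765 of 1778 for KRT18. The list of KRT7 began with the myosin light chain MYL6 (0.188) and the glycolytic enzyme GAPDH (0.186), followed by KRT8 (0.168). Those of VIM included the small GTPase RALA (0.164) and LGALS1 (0.152). CDH2 had the matrix gene FN1 (0.065), the actin-binding TAGLN (0.063) and the matrix gene THBS1 (0.049), and KRT7 ranked 8 in its list with 0.040. In the list of KRT7, CDH2 ranked 183 of 1778.

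KRT81 and KRT7 varied between cells beyond most genes of like level. The Fano factor, the variance over the mean of thinned UMIs, is close to 1 for counting alone. It was 1.65, 1.41, 1.67 and 1.59 for KRT81 in order of dose, against medians of 1.01 over 1359 to 1471 genes of like level. For KRT7 it lay between 1.83 and 2.02 in the 4 libraries, against 1.08 to 1.13. VIM (1.60 to 1.75), KRT8 (1.16 to 1.23) and KRT18 (1.13 to 1.23) were above the median of their like as well, and CDH2 (1.05 to 1.07) was near it. KRT19 gave 1.10 to 1.30 against 0.993 to 1.00, although a KRT19 UMI was seen in only 0.755% to 0.955% of thinned barcodes, and EPCAM gave 0.994 to 0.996.

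Cells rich in KRT81 were also rich in KRT7. This split of barcodes was chosen after the spread of KRT81 was seen. Of the thinned barcodes 91.8%, 93.6%, 91.9% and 93.3% held no KRT81 UMI, and 45, 29, 75 and 45 barcodes held 3 or more. Mean KRT7 went from 3.14 UMIs in barcodes without KRT81 to 6.22 in barcodes with 3 or more in the control, from 2.45 to 5.41 at 10 mGy, from 2.84 to 5.36 at 100 mGy and from 2.92 to 6.16 at 1 Gy. VIM did not follow, with 13.4 and 14.0 in the control, 12.3 and 12.7 at 10 mGy, 11.5 and 11.9 at 100 mGy, and 11.6 and 11.9 at 1 Gy. The barcodes with 3 or more KRT81 UMIs were not deeper, with a median total of 19101 UMIs against 21832 in the control. The correlation of KRT81 with KRT7 was 0.161, 0.125, 0.140 and 0.129. Doublets were kept, and their part in these cells was not tested.

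**Figure D5:**
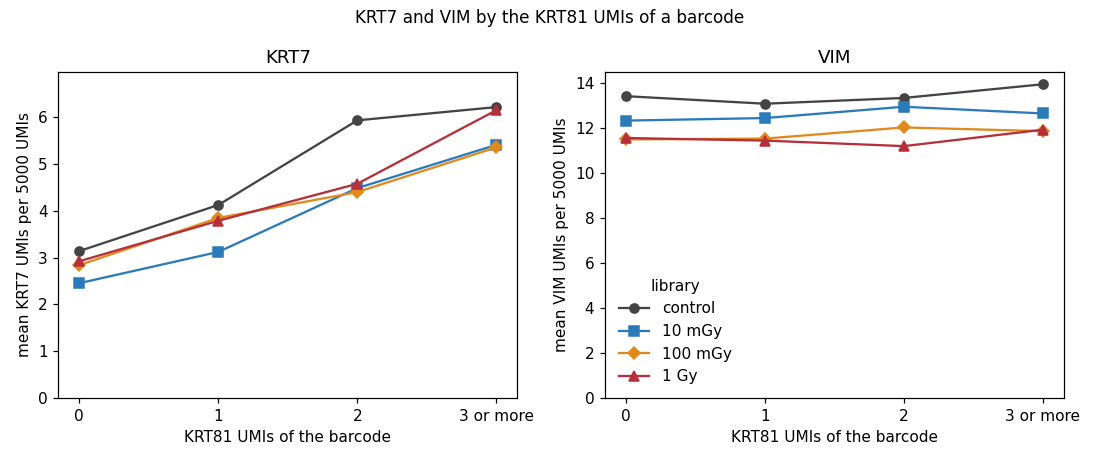
Mean KRT7 (left) and VIM (right) UMIs per 5000 UMIs (y axis) in barcodes with 0, 1, 2 and 3 or more KRT81 UMIs (x axis), 1 line per library. KRT7 is higher in each further class, from 3.14 to 6.22 in the control, and VIM stays between 11.2 and 14.0.

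In cells rich in G2/M transcripts the keratins and CDH2 stood lower, and vimentin less so. Barcodes were ranked by summed UMIs of 22 G2/M genes, of which all 22 passed 10 CPM, and of 20 G1/S genes, of which 19 passed. A top decile is a range of this sum and not a cell type, and 57 to 107 barcodes had exactly the G2/M sum at the limit. KRT7 in the G2/M top decile was at 0.810, 0.791, 0.783 and 0.855 of the barcodes in neither top decile, in order of dose. KRT18 was at 0.916, 0.819, 0.837 and 0.895, KRT8 at 0.923, 0.952, 0.915 and 0.911, CDH2 at 0.928, 0.956, 0.900 and 0.950, and VIM at 0.971, 0.968, 0.982 and 0.969. In the G1/S top decile KRT8 was at 1.09, 1.12, 1.10 and 1.05, KRT18 at 1.03, 1.06, 1.04 and 1.06, KRT7 at 1.03, 0.993, 0.970 and 1.04, and VIM at 0.951, 0.954, 0.955 and 0.979. G2/M barcodes were deeper before thinning, with a median of 26089 UMIs in the control against 21689.

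The low-UMI barcodes had their own profile of the members. VIM stood at 3408, 3205, 2653 and 3498 CPM in them, against 2686, 2497, 2338 and 2313 in the other barcodes. CDH2 stood at 148, 83.9, 109 and 153 CPM, against 183, 133, 151 and 196, so that vimentin was higher and N-cadherin lower in the low-UMI barcodes of every library. For KRT7 the values were 735, 538, 572 and 724 CPM against 643, 499, 589.7 and 591, higher in all but the 100 mGy library. Without these barcodes the number of members past 1.2-fold at each dose was as before.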

How the data were processed

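Per the labels, BEAS-2B cells of 4 doses were sequenced as 10x Chromium 3' libraries, 1 per dose. The authors deposited unnormalized UMI counts per gene and barcode. The file header names Cell Ranger 7.0.1, and the submitters' processing notes name Cell Ranger, STAR and GRCh37. The annotation release is not given in the sources used here. Libraries held 211752280 to 285806026 UMIs, so counting error is small and the absence of replicates limits the precision.

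UMIs were summed over all deposited barcodes and scaled to 1000000. Ratios carry exact conditional intervals, and summed counts exact Poisson intervals, at 95%. Genes needed a mean of 10 CPM (100 CPM for correlations). A call is a ratio past 1.2-fold, the fold used in the study. The study also set a limit on the p-value, which was not applied here, so these calls are not the study's. Low-UMI barcodes (3 times the count below the library median) were left out of thinned measures. No doublet caller was run, and doublets were kept. The members and lists were chosen with earlier results of these data known. Besides the members, every other keratin of at least 10 CPM was named, and from each list the 3 genes of highest level and the 2 of largest ratio at 10 mGy, and the 3 genes most like each member of at least 100 CPM. A few genes that this rule names are left out of the text. Feature identifiers were matched to GENCODE 29 for 94.6% of genes. Ratios, thinning and correlations were tested on simulated data. Alternatives were other scalings, barcode filters, thinning to 1500 UMIs, floors and folds. The tools were pandas 2.3.3, scipy 1.17.1, numpy 2.4.6 and biopython 1.88 under Python 3.11.15.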

Additional observations from a re-analysis of the deposited data

How the results depend on the processing

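No paired analysis was possible because each dose has 1 library. With median ratio scaling, members past 1.2-fold were 1 higher and 0 lower at 10 mGy and 2 higher and 0 lower at 100 mGy, and CDH2 at 100 mGy turned to 1.07. With unscaled UMIs per barcode, 6 members were lower at each dose and 0 higher, and KRT18 at 100 mGy turned to 0.829. Without ribosomal protein and mitochondrially encoded genes in the total, 0 of 6 members were lower at 100 mGy, beside 50.2% of all genes. A floor of 1 CPM gave 2 of 8 members higher at 10 mGy and 2 of 8 at 100 mGy. Over the 12879 genes at this floor 15.2% and 12.6% were higher. At 1.5-fold 0 members were called at any dose. The call of KRT81 at 1 Gy was lost (0 lower) with UMIs scaled to 10000 per barcode, without barcodes of very high UMI count, thinned to 5000 UMIs, and at a floor of 100 CPM, which leaves it out. Over all genes, 1313 higher and 4507 lower at 10 mGy became 2614 and 2295 with median ratio scaling, 138 and 7199 unscaled, and 420 and 2193 at 1.5-fold. At 100 mGy 1190 and 5011 became 2706 and 2469, 87 and 7663, and 429 and 2888. At 1 Gy 109 and 72 became 0 and 8265 unscaled, 177 higher with thinning, 109 lower with UMIs scaled to 10000, and 1 and 2 at 1.5-fold. Floors of 1 and 100 CPM change how many genes are tested, with 404 and 183 or 20 and 18 called at 1 Gy, and 1962 and 6872 or 547 and 660 at 10 mGy, and 1623 and 7837 or 549 and 693 at 100 mGy.

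KRT8 with KRT18 went from 0.114 to 0.041 thinned to 1500 UMIs, 0.043 with all barcodes of at least 1500 UMIs thinned to 1500, 0.246 unthinned and 0.731 with counting variance subtracted. KRT7 with KRT8 went from 0.167 to 0.067, 0.062, 0.281 and 0.606, and KRT8 with VIM from -0.052 to -0.020, -0.023, -0.080 and -0.210. These kept their sign, while medians near 0 did not, with VIM and CDH2 from 0.0034 to -0.0061 thinned to 1500 and KRT7 and VIM from -0.011 to 0.0024 with all barcodes. The sums went from -0.034 to -0.026 thinned to 1500, -0.0095 with all barcodes thinned to 1500 (-0.024 to 0.013 over libraries) and -0.078 with counting variance subtracted. The Fano factor of KRT81 went from 1.62 to 1.16 at 1500 UMIs. Values of r scale with depth by construction, so their size is that of 5000 UMIs only.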
